A study of Mus musculus with 10 samples.

Results

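Translation factor and tRNA synthetase genes were taken as the rows of the rate table whose symbols begin with Eif or Eef and a digit, or consist of a single letter followed by ars or ars2, together with Eprs. The X- and Y-linked copies Eif2s3x and Eif2s3y were left out. This gave 78 of the 8590 genes in the table. By symbol, 39 belonged to initiation (33 factors and 6 regulators), 5 to elongation and 34 to the aminoacyl-tRNA synthetases, of which 17 are cytosolic and 17 mitochondrial. Symbols do not always follow function: Eif5a2 encodes a form of eIF5A, which acts mainly in elongation, Eif6 keeps ribosomal subunits apart, Eif4a3 belongs to the exon junction complex, Eef1e1 is a scaffold protein of the multisynthetase complex, and Gars and Kars serve both cytosol and mitochondria. Eef1a1, Eef1a2, Eef2, Eif4a2, Eif4g1 to Eif4g3, Eif4ebp3 and Eif2ak2 were not analysed here.

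The series measured RNA metabolism in cultured cortical neurons of wild-type mice and of mice lacking Fmr1, the gene for the RNA-binding protein FMRP. Both genotypes carried the strain label FVB.129P2-Pde6b+ Tyrc-ch/AntJ. Cortices were dissociated at embryonic day 18 and the cells were kept for 14 days in vitro. Wild-type labelled libraries came from neurons given 200 µM 5-ethynyluridine (5-EU), a uridine analogue incorporated into new RNA, for 20 or for 60 min, and the knockout labelled libraries from neurons treated in the same way. All RNA was mixed with labelled fly RNA and with unlabelled yeast RNA, 10% by weight of each. The 10 samples also held, for each genotype, 2 inputs and 1 unlabelled pull-down, which have no rates of their own. Rates were therefore available for 4 libraries, and the 20 and 60 min libraries of a genotype stood as its 2 replicates. Nothing in the labels says that these libraries came from separate cultures or animals, so p-values measure only the spread between these libraries.

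Translation begins when eIF2 carries the initiator tRNA to the small ribosomal subunit, which eIF3 and the cap-binding eIF4 proteins bring to the mRNA. Kinases that phosphorylate eIF2 and the eIF4E-binding proteins of the Eif4ebp genes slow this step, and the eIF2B complex recharges eIF2 with GTP. The eEF1 complex then delivers aminoacyl-tRNAs, which the synthetases charge with amino acids, to the elongating ribosome. FMRP is best known as a repressor of translation in neurons, and mutations of eIF2B subunits and of several synthetases cause disease of brain white matter or peripheral nerve.

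The targeted gene was examined as a check of the labels. The degradation rate listed for Fmr1 was 0.0774 (20 min) and 0.0672 (60 min) in wild-type neurons, against 2.58 and 2.66 in knockout neurons, and its synthesis rate was 0.810 and 0.692 against 2.06 and 1.56, so the table did not show less Fmr1 synthesis in the libraries labelled knockout. The ratio of its synthesis to its degradation rate was lower there, 0.7996 and 0.586 against 10.5 and 10.3. Of the markers of other cells, the table listed 3 of 10 neuronal, 2 of 7 astrocyte and 4 of 7 oligodendrocyte lineage genes, and none of 7 microglial or 3 endothelial genes. A single gene of each of the first 3 lists could be tested: the log2 changes in degradation rate were 1.70 for Rbfox3, 0.57 for Aldh1l1 and −0.37 for Olig2, and none passed the test (limma adjusted p of 0.0781, 0.471 and 0.549); with labelling time as a block Rbfox3 did (0.0241). The part of other cells in the results below was not tested. The time unit of the rates is not stated, and the depth behind each rate is unknown.

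Promoters of 57 of the 78 genes were matched in RefSeq (GRCm38.p6, 67 promoters, each from 250 bases before to 50 after a transcript start). The C/EBP-ATF element is known from genes induced by a shortage of amino acids, several synthetases among them, and windows that hold it are shown beside the synthesis rates given below. Its letters, TGATGNAA, were searched on both strands. They were present in 4 of the 9 matched cytosolic synthetases and in the elongation factor kinase Eef2k, at an alternative start inside that gene. The same letters occurred in 0 of 14 mitochondrial synthetases and 0 of 26 initiation factors, all counted by gene. Counted by promoter, they were in 5 of the 67 member promoters (7.46%) against 3.97% of all 32851. Each of the following lines is a 30-base window on the strand of the gene, 5′ to 3′, with the element in capitals (in Gars, Iars, Tars and Eef2k it reads on the opposite strand).
Yars, chr4:129189895-129189924, plus strand: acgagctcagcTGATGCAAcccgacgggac
Gars, chr6:55037960-55037989, plus strand: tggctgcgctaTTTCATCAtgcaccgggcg
Iars, chr13:49682126-49682155, plus strand: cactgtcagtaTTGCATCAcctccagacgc
Tars, chr15:11399655-11399684, minus strand: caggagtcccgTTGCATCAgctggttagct
Eef2k, chr7:120851094-120851123, plus strand: ctttctgcttgTTTCATCAagctcagcttg

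In Gars, Tars and Eef2k the element began 30, 15 and 84 bases before the start, and in Yars and Iars it lay just after it. The E-box letters CACGTG, also searched on both strands, occurred in 10 of the 67 member promoters (14.9%) against 7.15% of all promoters. One of them was that of Eif3a, the largest eIF3 subunit, whose degradation rate differed most among the tested initiation factors, and the window is shown for that reason, with the E-box in capitals.
Eif3a, chr19:60790655-60790682, minus strand: cgcgagggaatCACGTGgttccttcctt

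The palindrome TGACGTCA, the cyclic AMP element, was in none of the 67 member promoters, against 1.79% of all promoters. These matches describe the letters only.

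Many of these genes had degradation rates in wild type and none in the knockout. Of the 73 members with a degradation rate above 0 in both wild-type libraries, 42 had a rate in all 4 libraries, 9 in 1 knockout library and 22 (30.1%) in neither. Over all genes the last share was 19.5%, 1546 of 7914. By group, 9 of 38 initiation genes (23.7%), 2 of 4 elongation genes, 6 of 16 cytosolic synthetases (37.5%) and 5 of 15 mitochondrial synthetases (33.3%) had no knockout rate. These shares were not tested, and a rate that is not listed is a missing estimate, not a rate of 0.

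**Figure D1:**
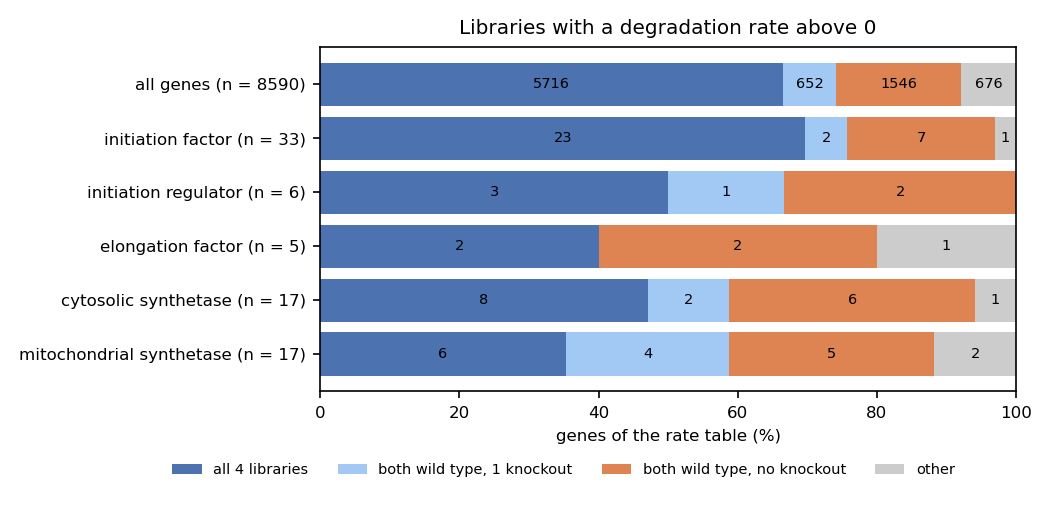
Share of genes (%, horizontal axis) by the libraries in which a degradation rate above 0 was listed, for all 8590 genes and for the 5 groups of members; numbers in the bars are gene counts. The segment for genes with both wild-type rates and no knockout rate holds 6 of 17 cytosolic and 5 of 17 mitochondrial synthetases, against 7 of 33 initiation factors.

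Among initiation genes, the 9 without a knockout degradation rate were 4 eIF3 subunits (Eif3g, Eif3i, Eif3k and Eif3m), the eIF2B subunit Eif2b4, Eif5b, which joins the ribosomal subunits, Eif6, the heme-regulated eIF2 kinase Eif2ak1 and the eIF4E-binding protein Eif4ebp1. Their mean wild-type degradation rates ran from 0.0651 to 0.161. Synthesis was listed more often than degradation: Eif3m had synthesis rates of 1.80 and 0.839 in wild-type neurons and 2.11 and 0.924 in knockout neurons, at 20 and 60 min, and Eif2b4, Eif3i and Eif3k each had a synthesis rate in 1 knockout library. In these 4 genes synthesis was thus listed in a knockout library that lacked degradation.

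Both elongation genes without a knockout rate lacked every rate there. Eef2k, the kinase that inhibits eEF2, had degradation rates of 0.129 and 0.0666 in wild type, at 20 and 60 min. Eef1e1 had 0.146 and 0.178. Eef1b2, a nucleotide exchange subunit of eEF1, was listed in the 60 min knockout library only, with a degradation rate of 0.0126.

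The 11 synthetases without a knockout degradation rate were the cytosolic Eprs, Hars, Iars, Lars, Mars and Rars and the mitochondrial Cars2, Hars2, Nars2, Rars2 and Wars2. Several of them belong to the multisynthetase complex, a cytosolic assembly of synthetases with the scaffold proteins Aimp1, Aimp2 and Eef1e1. That complex was singled out after the values had been seen. Of the 10 genes of the complex with both wild-type rates, 7 (70.0%) had no knockout rate (5 synthetases, Eef1e1 and Aimp1), Aimp2 had 1, and only Dars and Kars had both. Qars, an 11th gene of the complex, showed the reverse, with rates of 0.232 and 0.182 in knockout neurons and none in wild type. Mean wild-type synthesis rates were lower in the synthetases without a knockout rate, with a median of 0.474 in 11 genes against 0.832 in the 14 with all 4 rates. Over all genes these medians were 0.786 and 1.17, in the same order.

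Of the 9 members with a degradation rate in 1 knockout library, 8 had it at 20 min (Aars2, Eif2d, Eif3e, Eif4enif1, Iars2, Lars2, Sars and Tars) and 1 at 60 min (Fars2). Several of these single rates were far below wild type. The mitochondrial phenylalanyl-tRNA synthetase Fars2 had 0.140 and 0.0664 in wild-type neurons and 4.08e-04 in knockout neurons at 60 min. Eif2d, which handles reinitiation, had 0.0513 and 0.0516 in wild-type neurons and 0.00210 at 20 min in the knockout. Aars2, the mitochondrial alanyl-tRNA synthetase, was higher instead, at 0.224 in the knockout against 0.0345 in wild type, both at 20 min. With 1 knockout library per gene, these differences have no replicate check in the knockout.

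Degradation rates were compared by limma in the 5716 genes with all 4 rates, 42 of them members. A gene was called at an adjusted p under 0.05. Calls are from the fit without a block unless stated, and further members passed with labelling time as a block, as given below. Of the members, 6 were called, against 23.1% of all genes tested. Eif2b2, Eif2a, Eif3b and Wars were higher in the knockout, 4 of 42 where 20.5% of all genes were, and Eif3a and Eif3d were lower, 2 of 42 where 2.57% were. The median log2 change over the 42 members was 0.44 (26 above 0), against 0.65 over all genes tested. In 17 members both knockout libraries lay above both wild-type libraries, as in 52.6% of all genes, and in 12 both lay below, as in 16.5% of all genes. The plot of rates by library shows the members whose libraries separated in either direction.

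**Figure D2:**
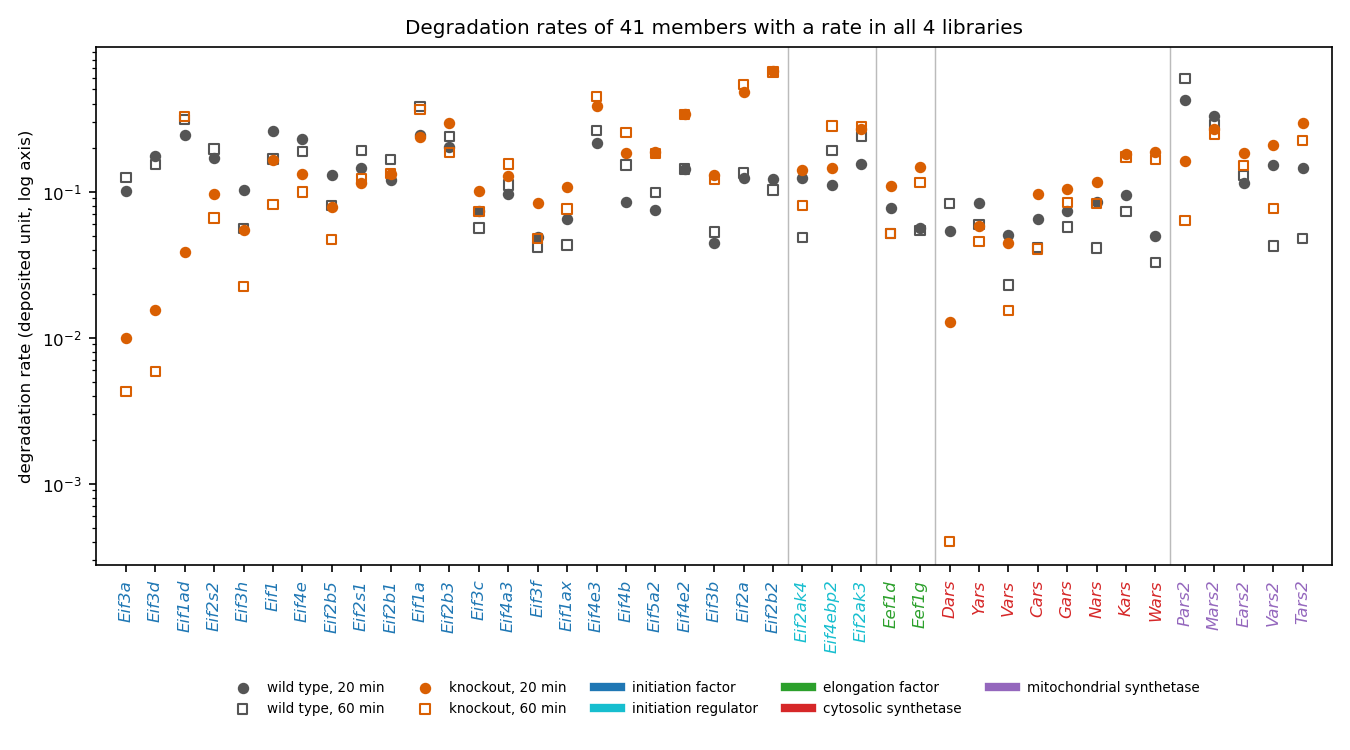
Degradation rate in the deposited unit (log axis) of 41 members with a rate in all 4 libraries, ordered by change within each group; filled circles are 20 min and open squares 60 min, grey is wild type and orange knockout. Knockout points of Eif3a, Eif3d, Dars and Pars2 lie below both wild-type points, and those of Eif2b2, Eif2a, Eif3b and Wars above.

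Among the 42 tested members the largest rise was that of Eif2b2 (chr12:85219481-85226628, plus strand), the beta subunit of the eIF2B exchange factor. At 20 and 60 min its degradation rate was 0.122 and 0.103 in wild-type neurons, against 0.674 and 0.660 in knockout neurons. Both knockout libraries lay far above both wild-type libraries, with a mean of 0.667 ± 0.00981 against 0.113 ± 0.0139 (SD, n = 2 each). It rose 5.94-fold, by 2.57 on the log2 scale (SE 0.32, limma adjusted p = 0.0235). For the other tested eIF2B subunits the log2 changes were −0.09 for Eif2b1, 0.08 for Eif2b3 and −0.76 for Eif2b5, none of which passed the test.

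Eif2a (chr3:58525821-58557501, plus strand) encodes a factor that can deliver initiator tRNA in place of eIF2. Its rates were 0.124 and 0.134 in wild-type neurons and 0.481 and 0.540 in knockout neurons. The libraries did not overlap, and the log2 change was 1.98 (SE 0.32, limma adjusted p = 0.0264), a 3.95-fold rise. Exons of Eif2a overlap those of the antisense gene Serp1, and the use of strand in counting is not stated, so reads of the pair may be mixed. Exons of Eef2k, Eif1ad, Eif2ak1, Eif2ak3, Eif2b4, Eif2d, Eif3m, Eif5b, Eif6, Fars2, Hars, Hars2, Iars2, Mars and Yars also overlap antisense genes. Of the subunits of eIF2 itself, Eif2s1, the alpha subunit that the stress kinases phosphorylate, had a log2 change of −0.49, and Eif2s2, the beta subunit, one of −1.19 (limma adjusted p of 0.331 and 0.0810).

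Within eIF3, the scaffold that holds the small subunit and mRNA together, the 3 called subunits differed in direction. Eif3b (chr5:140419328-140443360, plus strand) had degradation rates of 0.0443 and 0.0530 in wild-type neurons and 0.131 and 0.122 in knockout neurons. Both knockout values lay above wild type, a difference of 1.38 on the log2 scale (SE 0.33, limma adjusted p = 0.0487), or 2.60-fold. This call ended after each library was centred on its median rate, with a log2 change of 0.52 (limma adjusted p = 0.288), and in the authors' deposited table (adjusted p = 0.0549).

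Eif3a (chr19:60761117-60790658, minus strand), whose promoter window is shown above, had rates of 0.1005 and 0.125 in wild-type neurons and 0.00991 and 0.00426 in knockout neurons. Both knockout rates were more than an order of magnitude lower. The log2 change was −4.11 (SE 0.53, limma adjusted p = 0.0235), 17.2-fold lower.

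Eif3d (chr15:77958998-77970813, minus strand), the subunit that can itself bind the cap of some mRNAs, had rates of 0.176 and 0.153 in wild-type neurons and 0.0155 and 0.00587 in knockout neurons. Its log2 change was also −4.11 (SE 0.57, limma adjusted p = 0.0235), and again the knockout libraries lay below both wild-type libraries. An antisense gene, Gm17638, overlaps exons of Eif3d. Of the other tested eIF3 subunits, Eif3c and Eif3f had log2 changes of 0.41 and 0.47 and Eif3h one of −1.12. None passed the test without a block, and Eif3h did with it (limma adjusted p = 0.0401).

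No gene of the eIF4 group passed it without a block. Eif4e, the cap-binding protein, had degradation rates of 0.229 and 0.188 in wild-type neurons and 0.132 and 0.0995 in knockout neurons. Its libraries did not overlap, with a difference of −0.85 on the log2 scale (SE 0.35, limma adjusted p = 0.142). Its relative Eif4e2, a cap-binding repressor, had 0.142 and 0.143 and, in the knockout, 0.341 and 0.338, a difference of 1.25 (SE 0.31). Its limma adjusted p was 0.0538 without a block and 0.0286 with labelling time as a block. Eif4a1, the RNA helicase of eIF4F, had a degradation rate in only 1 library of each genotype, 0.116 at 20 min in wild-type neurons and 0.0110 at 60 min in the knockout, and was not tested.

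The 3 tested regulators of initiation had changes close to the median of all genes. The binding protein Eif4ebp2 had rates of 0.111 and 0.190 in wild-type neurons and 0.146 and 0.282 in knockout neurons, which overlapped, with a log2 change of 0.48. Of the eIF2 kinases, Eif2ak3 (PERK, the kinase of endoplasmic reticulum stress) had a log2 change of 0.51 and Eif2ak4 (GCN2, the kinase that senses uncharged tRNA) one of 0.45. The limma adjusted p of these 3 genes ran from 0.355 to 0.615.

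Both tested elongation genes are subunits of the eEF1 exchange complex. Eef1g, the gamma subunit, had degradation rates of 0.0560 and 0.0541 in wild-type neurons and 0.147 and 0.116 in knockout neurons. The libraries did not overlap, and the log2 change was 1.24 (SE 0.33, limma adjusted p of 0.0618 without a block and 0.0307 with it). Eef1d, the delta subunit, had rates of 0.0778 and 0.0518 in wild-type neurons and 0.109 and 0.0518 in knockout neurons, which overlapped, with a log2 change of 0.24 (SE 0.52).

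Of the 8 cytosolic synthetases tested, 1 passed without a block, where 23.1% of all genes tested did. Wars (chr12:108860030-108894174, minus strand), the tryptophanyl-tRNA synthetase, had rates of 0.0499 and 0.0326 in wild-type neurons and 0.187 and 0.166 in knockout neurons. Both knockout libraries were above wild type, a difference of 2.12 on the log2 scale (SE 0.38, limma adjusted p = 0.0296) or 4.36-fold.

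Dars, the aspartyl-tRNA synthetase, had the lowest change of the tested members, with rates of 0.0535 and 0.0826 in wild-type neurons and 0.0128 and 4.02e-04 in knockout neurons. Both knockout rates were below wild type but differed greatly from each other, so that a log2 change of −4.87 had an SE of 1.73 and did not pass the test (limma adjusted p = 0.106). In the authors' deposited table it was called, at a log2 change of −2.42 (adjusted p = 0.0327), and limma also called it with a pseudocount and without the knockout 20 min library. The 4 matched synthetases with the C/EBP-ATF letters did not share a pattern: the log2 change was 0.54 for Gars and −0.44 for Yars (limma adjusted p of 0.302 and 0.407), Tars had 1 knockout rate and Iars none.

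None of the 6 mitochondrial synthetases tested passed without a block. With labelling time as a block Pars2 and Tars2 did (limma adjusted p of 0.0333 and 0.0377). Pars2, for prolyl-tRNA, had rates of 0.421 and 0.595 in wild-type neurons and 0.163 and 0.0632 in knockout neurons, all lower, with a difference of −2.30 on the log2 scale (SE 0.58, limma adjusted p = 0.0553). Tars2, for threonyl-tRNA, had rates of 0.145 and 0.0476 in wild-type neurons and 0.295 and 0.223 in knockout neurons, all higher, with a difference of 1.62 on the log2 scale (SE 0.64, limma adjusted p = 0.131). Ears2, Mars2 and Vars2 lay between.

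**Figure D3:**
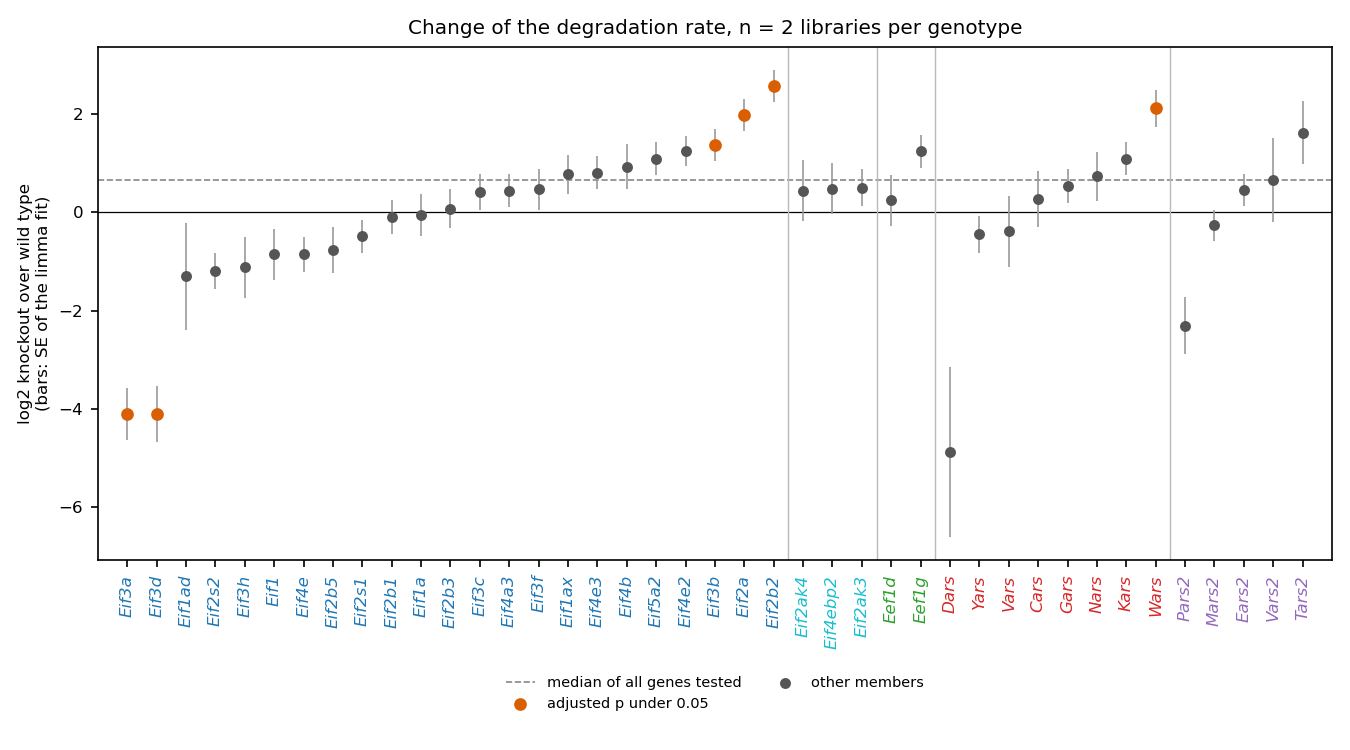
Log2 change of the degradation rate, knockout over wild type, by limma with bars for the SE (n = 2 libraries per genotype), for 41 members ordered by change within each group; the dashed line is the median of all genes tested, 0.65. The 6 called members (orange) reach from −4.11 for Eif3a to 2.57 for Eif2b2.

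By group, the median log2 change in degradation rate was 0.43 over 26 initiation genes, of which 3 were called higher and 2 lower, where 20.5% and 2.57% of all genes tested were. It was 0.74 over the 2 elongation genes, 0.40 over 8 cytosolic synthetases and 0.56 over 6 mitochondrial synthetases. Each library was also centred on its median log2 rate, which removed a shift between genotypes of 0.86 for degradation, −0.35 for processing and −0.01 for synthesis. After centring, 32 of the 42 members lay below 0, as did 3171 of the 5716 genes tested, and the median was −0.41 over the members and −0.20 over all genes. The medians of the 4 groups were then −0.43, −0.11, −0.45 and −0.30. Eif3a and Eif3d alone passed the test (limma adjusted p = 0.0497 for each), where 1.61% of all genes did and 1.05% were lower. Eif2b2, Eif2a and Wars were then at 1.71, 1.13 and 1.27 (limma adjusted p of 0.0536, 0.0878 and 0.101). These rises were thus smaller after centring but stayed above 0. Which scaling of the deposited rates is right was not tested.

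With labelling time as a block, 14 members passed, 9 higher and 5 lower, where 38.2% of all genes tested were higher and 9.76% lower. The 8 added were Eef1g, Eif4e2, Eif5a2, Kars and Tars2, higher, and Eif2s2, Eif3h and Pars2, lower (limma adjusted p from 0.0286 to 0.0471). With the block and centring together 15 passed, where 36.2% of all genes did. Of these Eif2a, Eif2b2 and Wars were higher, as 13.9% of genes were, and 12 were lower, as 22.4% were. The lower genes were Eif1, Eif2b5, Eif2s1, Eif2s2, Eif3a, Eif3d, Eif3h, Eif4e, Mars2, Pars2, Vars and Yars. Of the 46 members that the authors' deposited table tested, 11 had an adjusted p under 0.05, where 36.3% of its genes did (29.2% higher and 7.09% lower). It called Eif2a, Eif2b2, Eif3d and Wars of the 6 above, 6 members higher and 5 lower in all, and gave no test of Eif3a. With quantile normalization 6 members passed, where 10.4% of all genes did, and with a pseudocount 9, where 33.1% did. The knockout rates of Eif3a and Eif3d were all below that pseudocount, 0.0431. With low rates left out 4 of 25 passed, where 32.1% of genes did. That filter removed Eif3a, Eif3b, Eif3d and Wars before testing, so it gives no check of them. The 4 calls were Eif2a, Eif2b2 and Eif4e2, higher, and Pars2, lower. Leaving out a library changed these counts over all genes too. Without the wild-type 60 min library 0 members and 0.0175% of all genes passed, and without the knockout 60 min library 0 members and 2.26%. Without the wild-type 20 min library 4 members and 19.5% passed, and without the knockout 20 min library 3 members and 2.62%.

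The ratio of synthesis to degradation rate, which equals the level of mature RNA at steady state, behaved differently in the 2 genotypes. Whether the rates of both genotypes were estimated in the same way is not given in the sources used here, and the part of the estimation in the differences between knockout and wild-type degradation rates was not tested. In wild type it was the same at both labelling times, within a log2 difference of 0.001, in 65 of 73 members (7389 of 7914 genes), so the wild-type libraries are not independent estimates of a gene's degradation rate. In the knockout it was the same in 0 of 43 members and in 16 of 5913 genes. The median absolute log2 difference between the knockout and the wild-type ratio was 0.62 at 20 min and 0.76 at 60 min in the members, against 1.01 and 1.05 over all genes.

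For each gene a knockout level was also solved from both knockout libraries, as the difference of the synthesis rates divided by the difference of the degradation rates. This was chosen after the values had been seen. The solved level lay within 0.5 log2 of the wild-type ratio in 38 of 42 members (90.5%, against 90.8% of all genes), with a median absolute difference of 0.07. The exceptions were Eif2b1, Eif2b2, Eif4e2 and Pars2. In Eif2b1, Eif2b2 and Eif4e2 the knockout degradation rates at 20 and 60 min nearly agreed (0.133 and 0.134, 0.674 and 0.660, 0.341 and 0.338). Their solved levels are thus quotients of small differences and are uncertain.

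The members with the lowest knockout degradation rates showed this most plainly. The ratio for Eif3a was 25.6 in wild-type neurons and 344 and 766 in knockout neurons, with a solved level of 26.2. For Eif3d it was 17.1 in wild-type neurons and 122 and 292 in knockout neurons, with a solved level of 17.9. For Dars it was 10.3 in wild-type neurons and 78.2 and 2149 in knockout neurons, with a solved level of 10.8. The ratios of these genes were thus many times wild type while their solved levels stayed within 0.1 log2 of it.

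Among the members that rose, Wars had a ratio of 35.3 in wild type, 8.85 and 6.12 in knockout neurons and a solved level of 30.3. Eif3b had 48.0 in wild type, 22.9 and 21.3 in knockout neurons and a solved level of 42.6. The solved level of Eif2b2 was 4.74 against 7.06 in wild type, where the knockout ratios were 1.71 and 1.65. It rests on a small difference between the knockout libraries, so this gap is uncertain. A knockout degradation rate recomputed as synthesis rate over solved level differs from wild type by the change in synthesis rate less that of the solved level, so it does not use the deposited knockout rates on their own. Where the solved level lies close to the wild-type ratio the recomputed rate follows the synthesis rate. Eif2a was only just within 0.5 log2, with knockout ratios of 0.854 and 1.19 and a solved level of 3.87 against 5.44. Its recomputed log2 change was 0.04 against −0.45 in synthesis. Among the 4 exceptions the log2 changes were −0.84 against 0.13 in synthesis for Eif2b1, 1.08 against 0.50 for Eif2b2, 0.79 against 0.15 for Eif4e2 and −0.19 against 0.37 for Pars2. With the recomputed rate limma called 0 of the 42 members and 0.0353% of all genes, and the log2 change of Eif3a was 0.18, against 0.22 in its synthesis rate.

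**Figure D4:**
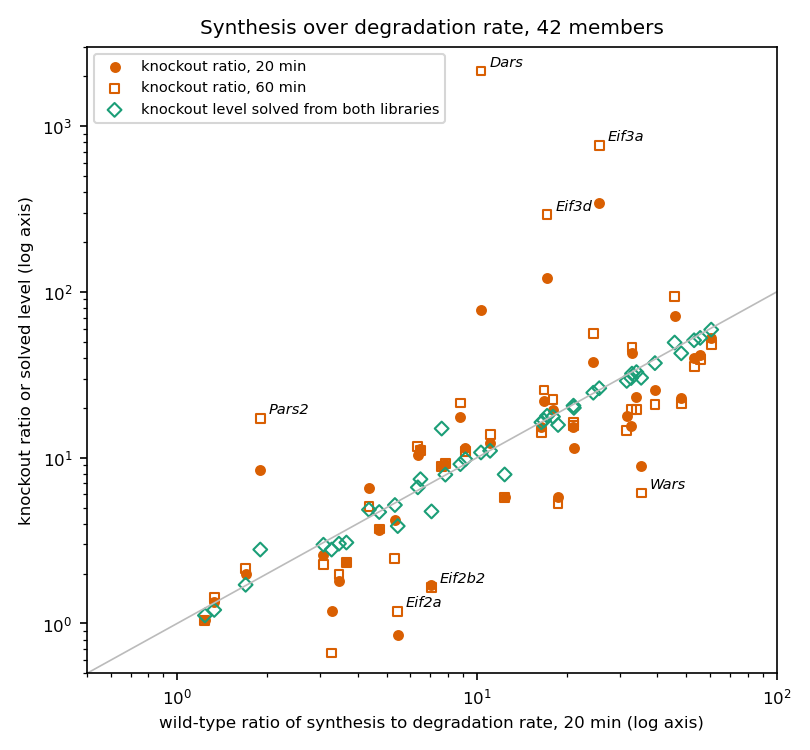
Ratio of synthesis to degradation rate in the knockout at 20 min (filled circles) and 60 min (open squares), and the knockout level solved from both libraries (diamonds), against the wild-type ratio at 20 min, for 42 members (log axes, deposited units; the line marks equality). The knockout ratios of Dars, Eif3a, Eif3d and Pars2 lie above the line and those of Wars, Eif2a and Eif2b2 below it, and 38 of the 42 diamonds lie within 0.5 log2 of it.

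In synthesis rate no gene was called. None of the 43 members tested passed the limma test, nor did any of the 5794 genes (0% called). At an unadjusted p under 0.05 there were 0 members and 18 genes in all (0.311%). Both knockout libraries lay above wild type in 8 members (8.92% of all genes) and below it in 3 (9.2%). The median log2 change was 0.08 in the members and −0.03 over all genes. By group it was 0.10 over 27 initiation genes, 0.18 over 2 elongation genes, −0.01 over 8 cytosolic synthetases and 0.09 over 6 mitochondrial synthetases.

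Of the genes called in degradation rate, Eif3a was made at 2.57 and 3.20 in wild-type neurons and 3.41 and 3.27 in knockout neurons. Wars was made at 1.76 and 1.15 in wild-type neurons and 1.65 and 1.01 in knockout neurons. Eif2b2 had synthesis rates of 0.864 and 0.725 in wild-type neurons and 1.16 and 1.09 in knockout neurons, a log2 change of 0.50 (SE 0.39).

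Eif3d was made at 3.02 and 2.62 in wild-type neurons and 1.88 and 1.71 in knockout neurons, lower in both, with a difference of −0.65 on the log2 scale (SE 0.39, limma adjusted p of 1.00). For the synthetases with the C/EBP-ATF letters the log2 change was 0.08 for Gars and −0.01 for Yars, and the single knockout rate of Tars, 1.42 at 20 min, compared with 1.24 at that time in wild type. The lowest of the tested members was Eif1ad at −0.96 (SE 0.94), with its larger difference at 20 min: it was made at 1.07 in wild-type neurons and 0.254 in knockout neurons at 20 min, and at 1.48 and 1.64 at 60 min.

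**Figure D5:**
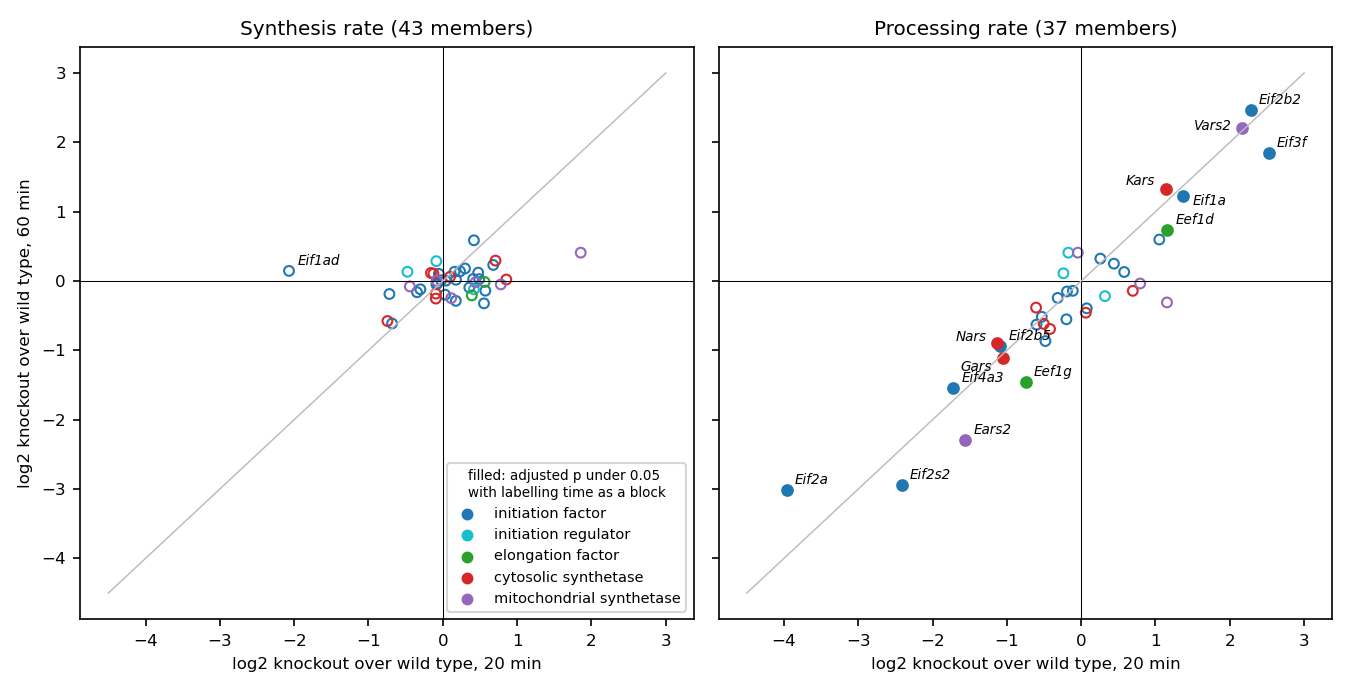
Log2 change, knockout over wild type, at 60 min against 20 min for the synthesis rate (left, 43 members) and the processing rate (right, 37 members); filled points passed limma with labelling time as a block, colours give the group and the line marks equal change. No synthesis point is filled, while 14 processing points are, 6 above 0 and 8 below at both times.

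Processing rates, the rates at which precursor RNA is spliced into mature RNA, could be tested in 37 members. None passed limma without a block, as none of the 5082 genes did (0% called), although an unadjusted p lay under 0.05 for 10 members and for 15.4% of genes. The members had a median log2 change of −0.16, against −0.36 over all genes. With labelling time as a block 14 members passed, 6 higher and 8 lower, where 25.6% of all genes tested did (6.26% higher and 19.3% lower). With the block and centring together 11 passed, 7 higher and 4 lower, where 13.5% of genes did (7.14% higher and 6.4% lower): Eef1g, Eif2b5, Gars and Nars were no longer called, and Eif2b1 was added.

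The lower genes were led by Eif2a, processed at 13.5 and 14.6 in wild type and at 0.868 and 1.80 in knockout neurons. For Eif2s2 the processing rates were 19.3 and 22.2 against 3.62 and 2.90. In both genes every knockout value lay below every wild-type value, with log2 changes of −3.49 (SE 0.51) and −2.68 (SE 0.41) and limma adjusted p of 0.102 without the block for each, and of 0.00809 and 0.00865 with it. The other lower genes were Eif4a3, the mitochondrial glutamyl-tRNA synthetase Ears2, Eef1g, Eif2b5, Gars and Nars. Exons of Ears2 overlap those of the antisense gene Ubfd1.

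The higher genes were Eif2b2, Eif3f, Vars2, Eif1a, Kars and Eef1d. Eif2b2 was processed at 3.26 and 2.74 in wild-type neurons and 15.8 and 15.0 in knockout neurons, a log2 change of 2.37 (SE 0.40). The eIF3 subunit Eif3f had 20.3 and 17.3 against 116 and 61.9, a change of 2.18 (SE 0.49). The mitochondrial valyl-tRNA synthetase Vars2 was lower at 60 than at 20 min in both genotypes, 1.93 against 6.89 in wild type and 8.89 against 30.9 in the knockout, and its test moved with the block (limma adjusted p of 0.324 without and 0.00953 with it). Exons of Vars2 overlap the antisense gene Gm20483 and those of Eef1d the gene Naprt on the same strand, so reads may be mixed there too. Eif1a is nearly identical in sequence to the X-linked Eif1ax, and reads of the pair may not have been told apart.

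With the block, 5 of the 37 members tested in both rates were called in both (13.5%, against 12.9% of all genes): Eef1g, Eif2a, Eif2b2, Eif2s2 and Kars. With block and centring these were Eif2a, Eif2b2 and Eif2s2. In Eif2b2 and Kars both rates were higher in the knockout and in Eif2s2 both were lower, whereas in Eif2a and Eef1g the degradation rate was higher and the processing rate lower. In Eif3a and Eif3d the processing rate differed far less than the degradation rate, with log2 changes of −0.67 and −0.28 that passed the test neither with nor without the block. These rates of a gene come from the same libraries and are not independent of each other.

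In 5 lists of other genes of the pathway, which the symbols do not capture, 4 of 19 tested genes were called in degradation rate (21.1%, against 23.1% of all genes). After centring 0 of the 19 were called by limma (4 at an unadjusted p under 0.05), and their median log2 change was 0.06 in place of 0.91. Of 5 tested genes of termination and recycling none passed without the block. Of the partners of the cap and poly(A) tail, 2 of 8 genes could be tested and both passed: Denr, which acts in reinitiation, was lower (0.207 and 0.145 in wild type, 0.0453 and 0.0457 in knockout neurons, log2 change −1.93, limma adjusted p = 0.0313) and Larp1, which binds mRNAs of the translation machinery, was higher (0.0763 and 0.0701 against 0.198 and 0.192, log2 change 1.41, limma adjusted p = 0.0441). Of 5 tested genes that signal to initiation, 1 passed: Gcn1l1, the partner of the GCN2 kinase, was higher, with rates of 0.0431 and 0.0221 in wild-type neurons and 0.252 and 0.208 in knockout neurons (log2 change 2.89, limma adjusted p = 0.0262).

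Synthetase subunits outside the naming rule gave 1 call among 3 tested genes: Farsb, the beta subunit of the cytosolic phenylalanyl-tRNA synthetase, had a log2 change of 2.25 (limma adjusted p = 0.0282). Its partner Farsa had rates of 0.0727 and 0.0525 in wild type and none in the knockout. None of 4 mitochondrial translation factors passed without the block. None of these lists had a call in synthesis or processing rate without the block. With the block 10 of the 19 genes passed in degradation rate, where 48% of all genes did; the 6 added were Gspt2, Mtor, Rptor, Mknk2, Aarsd1 and Gfm2, all higher (limma adjusted p from 0.0190 to 0.0470), and 2 of 17 passed in processing rate (Aarsd1 higher, Mtif2 lower), where 25.6% of all genes did. With block and centring 4 of the 19 passed in degradation rate, Gcn1l1 and Farsb higher and Denr and Gspt1 lower, where 36.2% of all genes did.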

How the data were processed

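Rates of 4 labelled libraries (2 per genotype, 1 per labelling time) were read from 1 table deposited by the authors, whose name cites INSPEcT per the labels. Its rates of synthesis, processing and degradation are linear values, and their time unit and the use of the spike-ins are not given in the sources used here. The submitters' processing notes name cutadapt, Bowtie2, TopHat2, HISAT2 and limma and the builds mm10, dm6 and sacCer3, with no role or order. In 3 further tables, 1 per rate, the authors gave log2 changes between genotypes and average log2 rates under limma column names. Those deposited tables hold p-values and adjusted p-values, and score columns (the moderated statistic and log odds, not used here). No further columns of per-sample values were left unused (0). Read counts were not used here, so no counting interval is given.

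For each of the 3 rates, genes with a rate above 0 in all 4 libraries were compared on the log2 scale with limma 3.58.1 in R 4.3.3 (lmFit and eBayes, two-sided, Benjamini-Hochberg over all genes tested, threshold 0.05), tested on simulated data. Tables were handled with Python 3.11.15, pandas 2.3.3 and numpy 2.4.6 and drawn with matplotlib 3.10.9. No adjustment was made over the members alone. The values of 1 member are not reported here; it is counted in the totals and group values and left out of the plots by gene. The members, groups, lists and named genes were chosen with earlier results of these data known. Named genes were every called member, the highest and lowest degradation change in each group, close pairs and families, and members with no knockout degradation rate; others were named after their values were seen.

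The labels give both genotypes the same labelling times, so a fit with labelling time as a block was also made. Over genes, the difference between the times in wild type and that in the knockout correlated with Spearman rho of 0.652 for degradation, 0.735 for synthesis and 0.735 for processing. Coordinates and overlaps are from GENCODE M21 (GRCm38), in which all 78 symbols were found; promoters are from RefSeq. Further alternatives were centring, quantile normalization, leaving out low rates (mean log2 rate at or under the 25th percentile), a pseudocount at the 10th percentile, the authors' tables, leaving out each library, and, added after the data were seen, the solved level.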

Additional observations from a re-analysis of the deposited data

Results flagged for a closer look

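At 20 and at 60 min the median log2 change of several small groups had opposite signs. With 1 library per genotype and time, the difference between the labelling times was not tested. For the synthesis rate, the median change at 20 and 60 min was 0.48 and −0.11 over the 2 elongation genes (Eef1d and Eef1g), −0.0932 and 0.0413 over the 8 cytosolic synthetases, and 0.28 and −0.0333 over the 6 mitochondrial synthetases. For the processing rate it was 0.20 and −0.36 over the same 2 elongation genes and 0.79 and −0.0356 over 5 mitochondrial synthetases.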

How the results depend on the processing

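Counts of called members, main value first, moved as follows for degradation rate. Over all genes tested the called share went from 23.1% to 48% with the block, 1.61% after centring and 36.2% with both. That share was 36.3% in the authors' table and 0.0353% over the solved level. All members went from 6 to 14 with the replicate block, 2 after centring, 15 with the block and centring, 11 in the authors' table, 0 over the solved level, and 0 to 4 when a library was left out. Initiation genes went from 5 to 9, 2, 10 and 0 under the block, centring, both, and the solved level, to 3 of 18 with low rates left out (32.1% of all genes), and to 0 to 2 without a library. Elongation genes went from 0 to 1 under the block and in the authors' table (Eef1g). Synthetases went from 1 to 4, 0 and 5 under the block, centring and both, to 2 with quantile normalization (10.4% of all genes), 3 with a pseudocount (33.1%), 4 in the authors' table, 0 over the solved level, and 0 to 2 without a library. Where a library was left out, the lone library was assumed to vary like the others. Where the solved level lies near the wild-type ratio (within 0.5 log2 in 38 of 42 members), its comparison stays near that of the synthesis rate. Its counts and the value of 0.18 for Eif3a (SE 0.40) are therefore no separate check of the degradation calls. Synthesis had 0 called members under every alternative run. In processing rate 0% of all genes were called without the block, 25.6% with it and 13.5% with block and centring. Processing went from 0 to 14 with the block, 11 with block and centring, and 0 to 1 without a library (Eif2a, without the knockout 60 min library). The causes of these shifts were not tested. With 2 libraries per genotype and unknown depth, a missing call does not show that a rate is unchanged.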

Other observations

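Biological groups not yet described gave the following values. In the cap-binding family the log2 difference in degradation rate was −0.85 for Eif4e, 1.25 for Eif4e2 and 0.81 for Eif4e3, and −1.71, 0.40 and −0.05 after centring; none passed limma without a block, and with block and centring only Eif4e did (limma adjusted p = 0.0301). Exons of Eif4e3 overlap the gene Gm20696 on the same strand. The helicase cofactor Eif4b, which assists eIF4A, had a difference of 0.93 (0.0846 and 0.152 in wild-type, 0.184 and 0.255 in knockout neurons; limma adjusted p = 0.191), and of 0.08 after centring. Eif1, which guards start codon choice, was made fastest of the members, at 11.9 and 7.62 in wild-type neurons and 11.7 and 7.68 in knockout neurons. Its degradation rates were 0.261 and 0.167 against 0.164 and 0.0815 (limma adjusted p of 0.269 without a block and 0.0719 with it). With block and centring together Eif1 passed as lower (limma adjusted p = 0.0309).

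Mtor and Rptor, the kinase and the adaptor of the complex that phosphorylates the eIF4E-binding proteins, had degradation rates of 0.0502 and 0.0307, and 0.0518 and 0.0382, in wild type, against 0.108 and 0.0762, and 0.0976 and 0.0849, in the knockout. By limma without a block neither passed (adjusted p of 0.105 and 0.0976), and with it both did (0.0311 and 0.0443). After centring the log2 differences were 0.36 and 0.18, and neither passed with or without the block (limma adjusted p from 0.325 to 0.734).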
